A study of Bos taurus with 12 samples.

Results

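The aquaporins measured here were 8 members of one family of membrane channels, AQP1, AQP3, AQP4, AQP5, AQP7, AQP8, AQP9 and AQP11, out of 26323 transcripts on the array. Their probes were found as the non-control probes whose annotation carried one of these symbols, and no measured level entered that matching. The members themselves were chosen with earlier results of these data known. AQP2, AQP6, AQP10 and MIP, also on the array, are given last. Each symbol belonged to 1 transcript, and the RefSeq accession in the probe annotation led to the same symbol for all 8 genes. The array is a custom 1-colour Agilent design on which each spot holds an oligonucleotide of 60 bases, and its brightness rises with the amount of labelled RNA that binds.

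The study examined how ageing changes the bovine endometrium, the inner lining of the uterus. Of the 12 cows, 4 were old females (OF), 13 to 14 years of age and nulliparous, and 4 were young females (YF), 4 to 5 years of age and primiparous, so that age and parity went together. All 8 were Holstein clones made from the somatic cells of a single donor cow, whose estrous cycles had been synchronised by the Crestar method, and intercaruncular biopsies were taken at Day 15 from the horn on the side of the corpus luteum. The other 4 were labelled contemporary cows, also synchronised and biopsied at Day 15, with no age, parity or clone status in the labels, and 1 of them, 1111, was set aside by the submitters for a divergent phenotype, which left 11 arrays. Because the clones share a genome, the differences among them are not those among unrelated cows, and no treatment other than the synchronisation was named for any group.

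Aquaporins are channels that let water cross cell membranes along an osmotic gradient. The aquaglyceroporins among them, here AQP3, AQP7 and AQP9, also pass glycerol and other small uncharged molecules, and AQP11 is an unorthodox member found mainly on membranes inside the cell. In the uterus, water channels are known from blood vessels, stroma and the luminal and glandular epithelium, where fluid is moved between tissue and lumen.

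On the UMD3.1 assembly, on which the array was designed, the annotated gene spans were chr4:65830992-65845186 for AQP1, chr24:30362738-30377272 for AQP4, chr5:30080721-30084591 for AQP5 and chr25:23069274-23079432 for AQP8. The aquaglyceroporin genes lay at chr8:76525369-76531334 for AQP3, chr8:76468680-76484933 for AQP7 and chr10:52152813-52169474 for AQP9, and AQP11 lay at chr29:18477128-18488713. AQP3 and AQP7 were neighbours, with 40435 bases between them. AQP5 lay in a row with the family members AQP6 and AQP2, 7762 bases from the first and 13076 bases from the second. The files did not state in which exon or untranslated region each probe lies.

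Each gene was read by 2 probe sequences, and those of AQP3 and AQP11 were each spotted as 2 separately named probes. The sequences matter for how far the probes of a gene check each other. For AQP1, AQP3 and AQP5 the 2 sequences overlapped by 53, 36 and 31 bases without a difference, whereas for AQP7, AQP8, AQP9 and AQP11 they did not overlap. The 2 AQP4 probes shared 55 bases with 1 difference, T37C, in which positions count from 1 at the 5′ end of the shared stretch and probe 1 gives the first base. The 30 bases around it are shown 5′ to 3′ with that base in capitals.
AQP4 probe 1: catgaattatgttgaTctcatattactaag
AQP4 probe 2: catgaattatgttgaCctcatattactaag
The hexamer AATAAA, the usual polyadenylation signal near the end of a messenger RNA, was present in 3 of the 16 aquaporin probe sequences as they are written and, on the opposite strand, in 1 of 16. Over all 50922 distinct probe sequences of the array the shares were 7.97% and 3.15%. The 30-base windows that hold it are shown with the hexamer in capitals, since they place these probes by their letters only.
AQP1 probe 2: ggaatttcattatatgttaagaaAATAAAc
AQP5 probe 2: aggtgagggcttcccAATAAAccactgaca
AQP7 probe 1: catccaccccAATAAAgaaagccttgtccc
Of the 2 AQP11 sequences, the one shared by probes 1 and 2 opens with the bases below, since its 2 spots gave different values on one array.
AQP11 probes 1 and 2: gaatcccattcaagtggacttgcccaaagc

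The arrays were alike in quality, with 71.5% to 74.9% of probes well above background, no saturated spot, and a 75th percentile of signal between 968 and 1597 intensity units. The arrays used lay on 2 slides, slide 1 with 1 OF and 2 YF and slide 2 with 3 OF, 2 YF and 3 contemporary cows. The number of arrays limits the precision of every value, since the scanner files hold no counting error. A level below is the log2 processed signal minus the 75th percentile of its array, averaged over the probes of the transcript, so that 0 is the brightness of the array's upper quartile and 1 unit is a 2-fold difference. Levels of different genes come from different probes and were not compared with each other. Female OF 2258 stood apart from the other 7 clones, with a first principal component of 118.4 against -43.41 to 24.96 for the others, and that component held 53.5% of the variance. All 7 epithelial, 6 stromal and 8 endothelial markers on the array were well above background on all 11 arrays, but so were all 7 smooth muscle, 7 granulocyte and 4 erythrocyte markers, so detection alone does not tell endometrium from other tissue.

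Of the 8 aquaporins, AQP1, AQP3, AQP4 and AQP5 were well above background on all 11 arrays. AQP7 was above background on 9 arrays, AQP9 on 2, AQP11 on 1 and AQP8 on none. In no comparison did an aquaporin pass limma at an adjusted p of 0.05. By animal, AQP1 was higher and closer together in OF than in YF on average, and AQP4 ranged widely among females of one age.

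**Figure D1:**
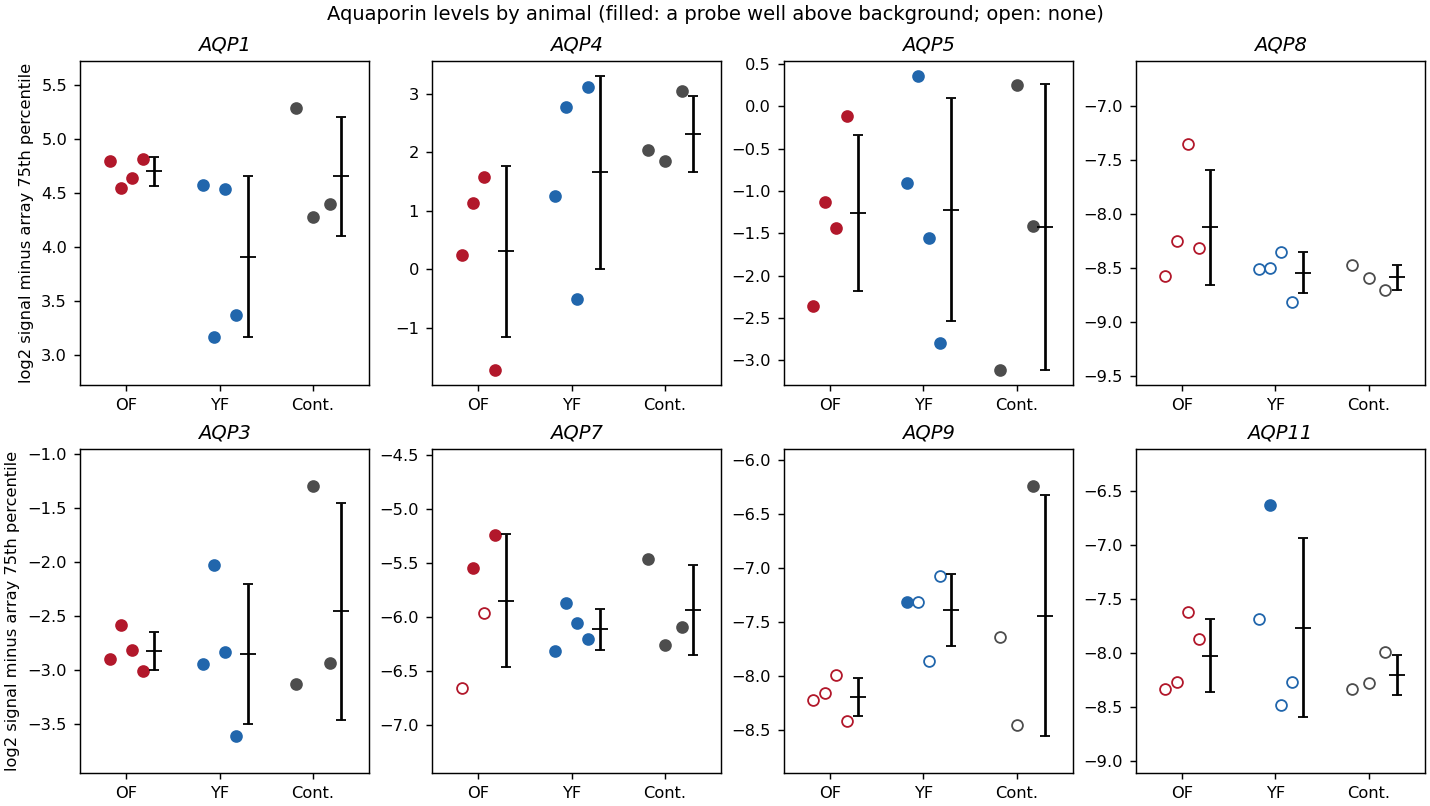
Levels of the 8 aquaporins by animal, in log2 units relative to the 75th percentile of each array, for OF (red, 4 females), YF (blue, 4) and contemporary cows (grey, 3), with water channels in the upper row and AQP3, AQP7, AQP9 and AQP11 in the lower. Filled points had at least 1 probe well above background and open points none, bars give the mean and SD of the group, and each panel has its own vertical range. AQP1 lay between 4.55 and 4.82 in OF and between 3.16 and 4.57 in YF, and all points of AQP8 are open.

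AQP1 is the water channel of red blood cells and of the endothelium of many capillary beds. Its level was 4.80 in OF 0233, 4.55 in 0234, 4.65 in 0245 and 4.82 in 2258. In YF it was 4.57 in 1069, 3.16 in 1070, 4.54 in 1072 and 3.37 in 1127. The young females therefore formed a pair at the level of OF and a pair well below it, and 3 of the 4 OF lay above every YF. The SD between animals was 0.13 in OF and 0.75 in YF, a gap in spread that was not tested.

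The mean AQP1 level was 0.79 higher in OF than in YF (SE 0.34, 95% interval 0.02 to 1.57, n = 4 and 4), which was 1.73-fold on this scale. The unadjusted p by limma was 0.0461, one of 478 among 19755 transcripts tested (2.42%), and the adjusted p was 0.999. The exact two-sided permutation test over the 8 females gave p = 0.0571, where the smallest possible value was 0.0286. The difference was nearly the same on both slides, 0.80 on slide 1 with 1 OF and 2 YF and 0.75 on slide 2 with 3 OF and 2 YF. The 2 AQP1 probes gave 0.80 and 0.78. Leaving out 1 female at a time moved the difference between 0.54, without YF 1070, and 1.01, without YF 1069. The unadjusted p was above 0.05 without any one of the 4 OF and without YF 1070 or 1127. It was 0.077 with slide as a block (95% interval -0.11 to 1.64) and 0.072 with quantile normalisation (95% interval -0.08 to 1.53).

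Markers of the cells that carry AQP1 were read in the same arrays. The endothelial score, the mean log2 deviation of the 8 endothelial markers, was between -0.21 and 0.19 in OF and between -0.70 and 0.08 in YF. YF 1127 had the lowest endothelial score and a low AQP1, whereas YF 1070, with the lowest AQP1, had an endothelial score of -0.07. Of the erythrocyte genes HBA, HBB, ALAS2 and AHSP, all 4 were above background on all arrays, and their score averaged -0.17 ± 0.22 over the 4 OF (SD) and -0.15 ± 0.34 over the 4 YF (SD). In the 3 contemporary cows it averaged 0.43 ± 0.61 (SD), with HBB, the beta-globin gene, 1.81 above YF (unadjusted p by limma 0.044) and 2.11 above OF (unadjusted p by limma 0.0059), neither passing after adjustment. The 4 genes did not move together. AHSP went the other way, at -0.52 against YF (unadjusted p by limma 0.022) and -0.44 against OF (unadjusted p by limma 0.089). ALAS2 was 0.82 above YF and 0.73 above OF, and HBA was 0.23 above YF and -0.001 against OF. The part of these cells in the AQP1 values was not tested. In a piece of tissue, fewer cells of a type and less RNA per cell cannot be told apart.

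In contemporary cows AQP1 was 5.29 in 1068, 4.28 in 1128 and 4.40 in 1129. Cow 1068 had the highest AQP1 of the 11 animals and also the highest endothelial score, 0.84. The contemporary means of all 8 endothelial markers lay above those of YF, none passing after adjustment or unadjusted, with a median of 0.49 against -0.02 over all transcripts. The mean of AQP1 was 0.74 above YF (SE 0.43, adjusted p by limma 0.9999, exact permutation p = 0.343), but 0.43 without cow 1068 and 0.50 without YF 1070. It was -0.05 against OF (SE 0.26, 95% interval -0.66 to 0.57, adjusted p by limma 0.992). The 3 comparisons share animals, since each group enters 2 of them.

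**Figure D2:**
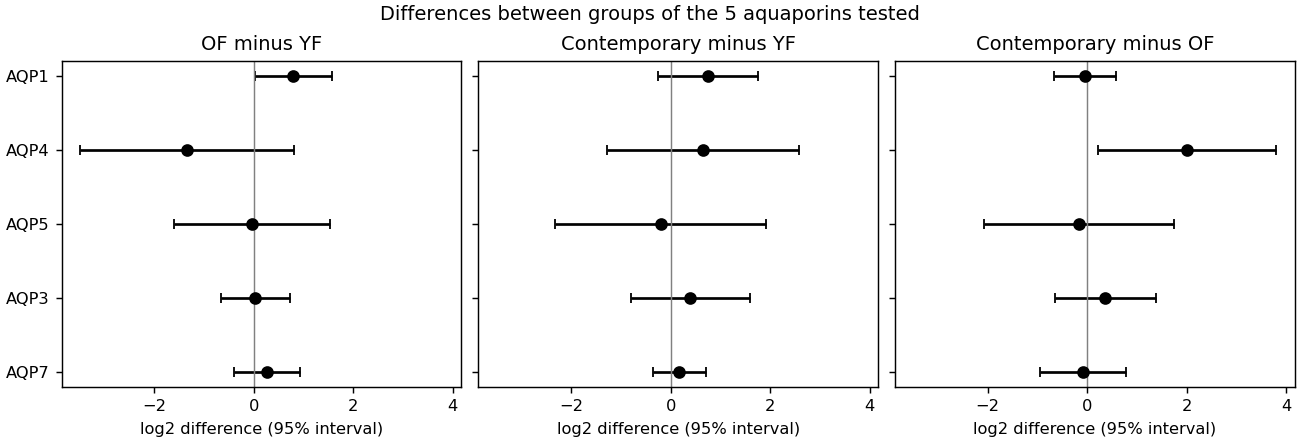
Differences between groups in log2 units with the 95% interval of limma, for the 5 aquaporins tested, in OF minus YF (4 and 4 females), contemporary minus YF (3 and 4) and contemporary minus OF (3 and 4). The interval of AQP1 lay just above 0 in OF minus YF, from 0.02 to 1.57, and that of AQP4 lay above 0 in contemporary minus OF, from 0.207 to 3.804, both before adjustment over all transcripts. With slide as a block that of AQP1 reached below 0, from -0.11 to 1.64.

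AQP4 is the orthodox water channel known best from the end feet of astrocytes and from the basolateral membrane of several epithelia. Its level was 0.24 in OF 0233, 1.13 in 0234, 1.58 in 0245 and -1.72 in 2258. In YF it was 1.25 in 1069, 2.77 in 1070, -0.50 in 1072 and 3.11 in 1127. OF 2258 was below all YF, and YF 1070 and 1127 were above all OF, while the other 5 females overlapped. From the lowest to the highest animal the signal spanned 9.87-fold within OF and 12.2-fold within YF.

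The mean AQP4 level in OF minus YF was -1.35 (SE 0.94, 95% interval -3.50 to 0.80, adjusted p by limma 0.999, exact permutation p = 0.286). Single females carried much of this value, which was -0.67 without OF 2258, -0.87 without YF 1127 and -2.07 without YF 1072, where the unadjusted p by limma was 0.039. It also differed between slides, at 0.45 on slide 1 with 1 OF and 2 YF and -2.30 on slide 2 with 3 OF and 2 YF. The probes that differ at 1 base gave -1.36 and -1.34, and their values by animal are plotted further on.

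All 3 contemporary cows had more AQP4 than any OF, at 2.04 in 1068, 1.85 in 1128 and 3.06 in 1129. Groups that far apart in either direction were found for 5.79% of 19914 transcripts in this comparison, and for 2.86% with the contemporary cows on top. The contemporary mean was 2.01 above OF (SE 0.77, 95% interval 0.207 to 3.804), or 4.01-fold, with an unadjusted p by limma of 0.0334, as for 911 transcripts (4.57%), and an adjusted p of 0.912. The exact permutation test gave p = 0.0571, the smallest possible with 3 against 4. The difference was 1.33 without OF 2258 and 2.43 among the 6 cows of slide 2. The unadjusted p was above 0.05 without cow 1068 (0.061), cow 1129 (0.117) or OF 0233 (0.065), and with all 3 groups in 1 fit (0.056). Against YF the contemporary mean was 0.65 higher (SE 0.83, adjusted p by limma 0.9999, exact permutation p = 0.686), and -0.065 without YF 1072.

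The genes whose deviations from their group means were most like those of AQP4 over the 11 arrays were WDR54 (r = 0.98, rho = 0.92) and KIF6 (r = 0.98, rho = 0.91), out of 16019 named transcripts above background on all arrays. KIF6 is a kinesin linked to motile cilia. The next 4, named after their values were seen, were LRRC36, DNAH1, OOEP and LRRC6, with r from 0.96 to 0.98. DNAH1 is an axonemal dynein heavy chain and LRRC6 an assembly factor of axonemal dynein. Such likeness across 11 arrays is a description, because the animals share their arrays across all genes and the best of many candidates were taken.

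Because of these names, genes of the motile cilium were read as well, as a list chosen after the likeness was seen and therefore without a test. Of its 15 genes 14 were on the array and 12 were above background on all arrays, FOXJ1, the master regulator of motile cilia, among them. The deviations of each of the 12 followed those of AQP4, with r from 0.85 for RSPH1, a radial spoke protein, to 0.94 for TPPP3, a tubulin-binding protein of ciliated cells. The cilium score was -0.23 in OF 0233, -0.07 in 0234, 0.49 in 0245 and -3.28 in 2258. In YF it was -0.72 in 1069, 0.98 in 1070, -1.34 in 1072 and 1.66 in 1127. The females with the highest AQP4 in YF, 1127 and 1070, had the highest cilium scores, and the females with the lowest AQP4 in OF and YF, 2258 and 1072, had the lowest. In contemporary cows, which lay above all OF for AQP4, the score was between 0.04 and 1.27, against -3.28 to 0.49 in OF. The part of ciliated cells in the AQP4 differences was not tested.

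OF 2258, the female with the lowest AQP4, also had the lowest epithelial score, -1.90, with the other OF between -0.09 and 0.93, and the highest smooth muscle score, 4.15. All 7 smooth muscle markers on the array were above background on all arrays, and their score ranged from -1.12 to 4.15 in OF, from -1.51 to 0.08 in YF and from -0.88 to -0.37 in contemporary cows. Without 2258 the AQP4 difference between OF and YF kept its sign, at -0.67. That value still includes OF 0234, whose smooth muscle score was 2.55, and the part of muscle in the difference was not tested.

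**Figure D3:**
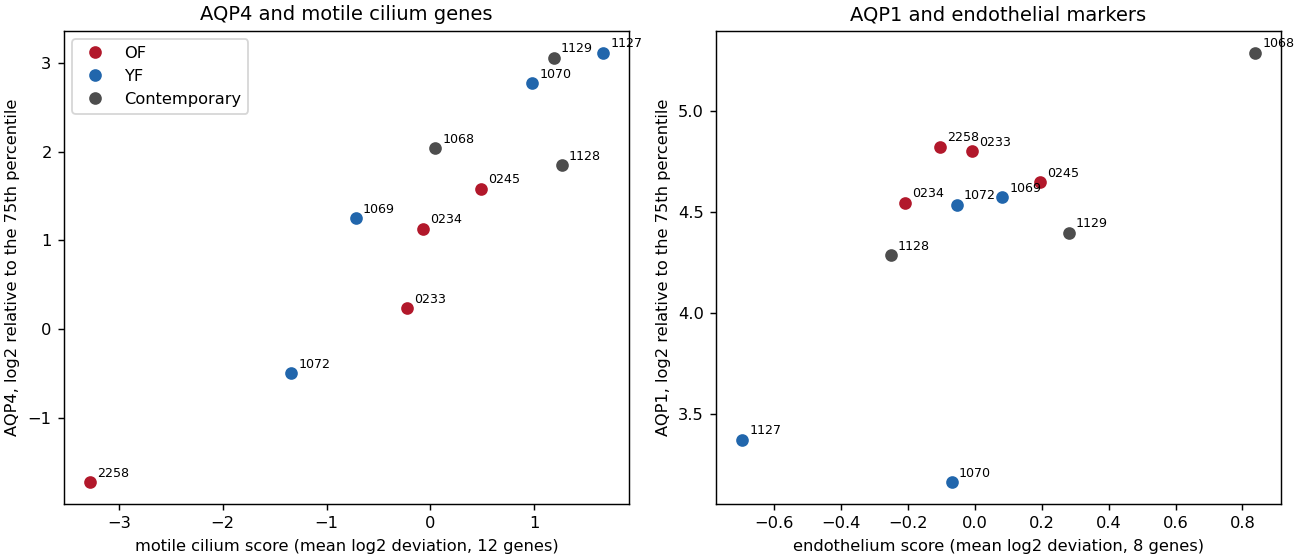
AQP4 level against the score of 12 motile cilium genes (left) and AQP1 level against the score of 8 endothelial markers (right), 1 labelled point per animal, in log2 units, with OF in red, YF in blue and contemporary cows in grey. AQP4 climbs with the cilium score from OF 2258 at the lower left to YF 1127 at the upper right, whereas OF AQP1 stays between 4.55 and 4.82 and YF 1070 lies far below animals with a like endothelial score.

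AQP5 is the apical water channel of secretory glands such as the salivary and sweat glands. Its level was -2.36 in OF 0233, -1.13 in 0234, -1.44 in 0245 and -0.11 in 2258. In YF it was -0.90 in 1069, 0.36 in 1070, -1.55 in 1072 and -2.80 in 1127, and in contemporary cows -3.12 in 1068, 0.26 in 1128 and -1.41 in 1129. Each group held a high and a low animal, and the ranges of the 3 groups overlapped. The OF minus YF difference was -0.04 (SE 0.69, 95% interval -1.61 to 1.54, adjusted p by limma 0.9997), an interval that spans more than a 2-fold change either way. Contemporary cows differed by -0.20 from YF and by -0.16 from OF, with exact permutation p = 0.800 and 0.914. OF 2258, which had the lowest epithelial score, had the highest AQP5 of its group. The genes most like AQP5 in their deviations were GP2, a secreted mucosal glycoprotein (r = 0.97), and GGH, a lysosomal hydrolase of folates (r = 0.96).

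The spread of AQP4 and AQP5 within groups was among the largest on the array. The SD between animals of one group, pooled over the 3 groups, was 1.39 for AQP4 and 1.30 for AQP5, larger than for 98.8% and 98.4% of the 18682 transcripts above background on all 11 arrays, whose median was 0.32. It was 0.65 for AQP3 and 0.54 for AQP1, larger than for 86.5% and 78.9%. For the clones among these animals, the spread is that between females of 1 genotype.

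**Figure D4:**
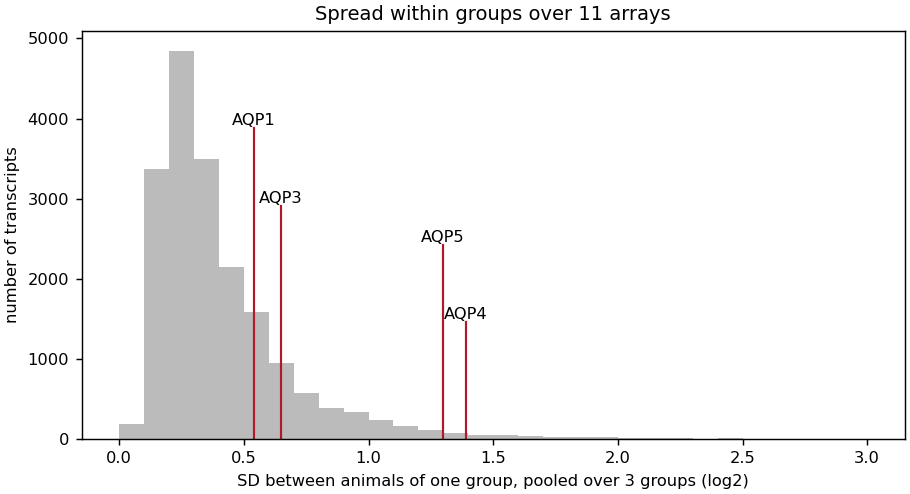
Histogram of the SD between animals of one group, pooled over the 3 groups, in log2 units, for the 18682 transcripts above background on all 11 arrays (grey bars, number of transcripts), with red lines at the aquaporins. AQP4 at 1.39 and AQP5 at 1.30 lie in the far right tail, and AQP1 and AQP3 to the right of the median of 0.32.

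AQP8, a channel for water and ammonia in liver, pancreas and gut, was not well above background on any array. Its levels lay between -8.57 and -7.35 in OF, -8.81 and -8.35 in YF and -8.70 and -8.47 in contemporary cows, and no fold is given where both sides are dim.

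Among the aquaglyceroporins, AQP3 is a basolateral channel of epithelia and skin. Its level was -2.90 in OF 0233, -2.58 in 0234, -2.81 in 0245 and -3.01 in 2258. It was -2.95 in YF 1069, -2.03 in 1070, -2.83 in 1072 and -3.61 in 1127. The old females were close together (SD 0.18) and the young ones spread (SD 0.65), as for AQP1, but here all OF lay inside the range of YF. The OF minus YF difference was 0.03 (SE 0.30, 95% interval -0.67 to 0.73, adjusted p by limma 0.999). Contemporary cow 1128 was high at -1.30, with 1068 at -3.13 and 1129 at -2.94, and the group mean was 0.40 above YF (SE 0.51) and 0.37 above OF (SE 0.43), with adjusted p by limma of 0.9999 and 0.965.

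Among contemporary cows the SD was 0.73 and 0.70 for the probes with one AQP3 sequence and 1.33 and 1.27 for those with the other. The genes most like AQP3 were LTF, which encodes the antimicrobial protein lactotransferrin (r = 0.97), and CFB, complement factor B (r = 0.96).

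AQP7, the glycerol channel of adipocytes, was dim. Its level was -5.55 in OF 0234 and -5.24 in OF 2258, while OF 0233 at -6.66 and 0245 at -5.97 were not well above background. In YF it lay between -6.32 and -5.88 and in contemporary cows between -6.26 and -5.46, above background on all arrays of both groups. The difference between OF and YF was 0.26 (SE 0.29, adjusted p by limma 0.999), but 0.44 for probe 1 and 0.09 for probe 2, which was above background in all 4 YF. None of the 3 adipocyte markers on the array was above background on all 11 arrays, and ADIPOQ and CIDEC were above it on none.

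AQP9, a channel for glycerol and urea best known from liver and leukocytes, was above background in YF 1069 and contemporary cow 1129 only. Its levels were -8.22, -8.16, -7.99 and -8.42 in the 4 OF and -7.32, -7.32, -7.86 and -7.07 in the 4 YF, so that all OF lay below all YF, as did 0.513% of all 26323 transcripts. The exact permutation test gave p = 0.0286, the smallest possible with 4 against 4, but 7 of these 8 values were not well above background and no fold is given. Probe 1 on its own also kept OF and YF apart. Probe 2, well above background on 0 arrays, did not, with levels from -8.79 to -8.07 in OF and from -8.35 to -7.25 in YF. The gap did not hold under normexp background correction, as given with the rank test below. Cow 1129 was the highest at -6.24, and the other contemporary cows were at -7.64 and -8.45.

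AQP11 was above background on 1 array, and there in 1 of its 4 spots. In YF 1070 probe 1 read -1.67, while probe 2, which has the same sequence, printed above, read -7.70, and the other probes read -8.82 and -8.30. On the other 10 arrays probe 1 lay between -8.69 and -6.71. The group SD of AQP11 in YF, 0.83, rests on that spot, and no difference was read from this gene.

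**Figure D5:**
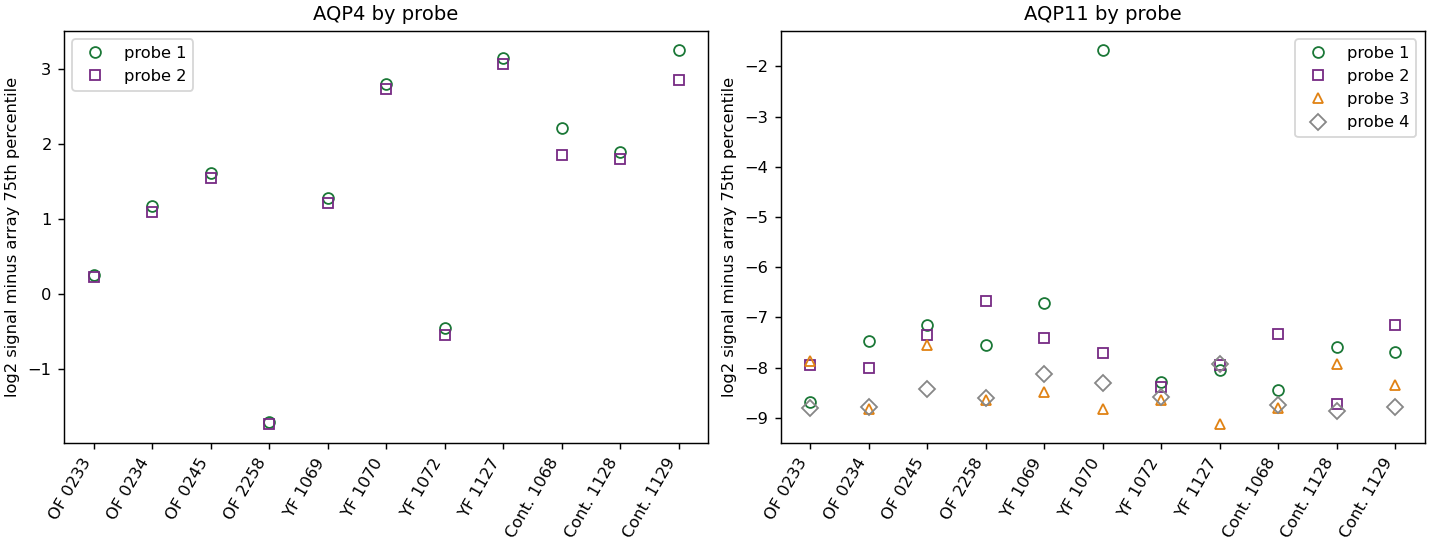
Level of each probe by animal for AQP4 (left, 2 probes with 1 base difference) and AQP11 (right, 4 probes, of which 1 and 2 share a sequence, as do 3 and 4), in log2 units relative to the 75th percentile of the array. The AQP4 probes move together over all 11 animals, whereas a single AQP11 spot in YF 1070 lies at -1.67 with all other AQP11 spots at -6.67 or lower.

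The fold change rank ordering statistics (FCROS), the method of the study for OF against YF, ranks all transcripts within each of the OF to YF ratios and calls those with an extreme average rank and a fold change of at least 1.5. Its f-value nears 1 for transcripts ranked high in OF and 0 for those ranked low. The f-value places a transcript's average rank on a normal curve with the mean and SD of all average ranks in the same data. Some transcripts therefore lie beyond its thresholds whether or not OF and YF differ, and the number called does not measure a difference. FCROS makes no adjustment for the number of transcripts, and called 1300 of 26323 (4.94%). These were 757 transcripts with more signal in OF (2.88%) and 543 with less (2.06%). The method was coded here from its description. For the same comparison the paper reports a smaller number, with more genes under-expressed than over-expressed in OF. Its count is of genes, whereas the count here is of transcripts with dim ones included, and was 944 with dim transcripts left out. The calls given here are therefore not the study's own. Of the 8 aquaporins it called 3. AQP1 was over-expressed (FC = 1.58, f-value 0.978), and AQP4 (FC = 0.359, f-value 0.00654) and AQP9 (f-value 0.00776) were under-expressed. This FC is a ratio of arithmetic means of unlogged signal, whereas the 1.73-fold given for AQP1 above came from means of log2 levels. AQP9 is the dim gene described above, and with normexp background correction its f-value was 0.255 and it was not called. The call of AQP1 was lost on leaving out OF 0233, 0245 or 2258 or YF 1070 or 1127. That of AQP4 was lost without OF 2258, YF 1070 or YF 1127.

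With limma, 5 aquaporins were tested in each comparison and 0 passed at an adjusted p of 0.05, as did 0.0% of all transcripts. At an unadjusted p of 0.05, AQP1 passed in OF minus YF (background 2.42%), none in contemporary minus YF (background 3.03%) and AQP4 in contemporary minus OF (background 4.57%), with the animals and settings on which the AQP1 and AQP4 results rest given above.

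Among the 6 pairs of the 4 aquaporins above background on all arrays, AQP3 and AQP5 had the highest correlation of deviations from group means (r = 0.81, exact permutation p = 0.0272, adjusted over the 6 pairs 0.163; rho = 0.65, exact permutation p = 0.115, adjusted 0.437; n = 11). It was r = 0.58 without 1128 and YF 1070, the animals farthest from the median of AQP3. AQP1 and AQP4 ran against each other (r = -0.65, exact permutation p = 0.0689, adjusted 0.207; rho = -0.61, exact permutation p = 0.146, adjusted 0.437), at r = -0.64 without YF 1069 and 1070. None of the 6 passed after adjustment. For AQP1, the genes most alike were SRSF6, a splicing factor, and SNX27, a sorting nexin of endosomes (r = 0.94 for both), and each of these differed by only 0.01 between OF and YF.

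Genes around the aquaporins were read as 3 lists. Of 8 genes for the syntrophins and the dystrophin complex, which hold AQP4 at membranes of other tissues, 6 were tested and none passed after adjustment in OF minus YF, with 1 at an unadjusted p of 0.05 (2.42% over all transcripts) and a median of 0.06 against 0.01 over all transcripts. DTNA, alpha-dystrobrevin, had the largest positive difference, 2.36 (SE 0.90, unadjusted p by limma 0.0300, exact permutation p = 0.0857), and DTNB the largest negative one, -0.40. The paper names DTNA among the genes most over-expressed in OF, and reports it higher in OF by RT-qPCR in more females. All 7 smooth muscle markers tested were also higher in OF, with a median of 2.08, and the part of muscle in the DTNA difference was not tested. Of 26 genes for ion and fluid transport 18 were tested, 8 higher and 10 lower in OF, none passing after adjustment and 3 unadjusted (2.42% over all transcripts), with a median of -0.16. SLC4A7, a bicarbonate transporter, had the largest positive difference, 1.24 (unadjusted p by limma 0.0427, exact permutation p = 0.0857), and CFTR, the epithelial chloride channel, the largest negative one, -1.87 (unadjusted p by limma 0.160, exact permutation p = 0.229).

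Of 14 genes for glycerol and lipid handling 11 were tested, 6 higher and 5 lower in OF, none passing after adjustment and 2 unadjusted (2.42% over all transcripts), with a median of 0.06. LPL, lipoprotein lipase, was 2.78 higher in OF (unadjusted p by limma 0.0075, exact permutation p = 0.0286, the smallest possible), and DGAT2, which makes triglycerides, was the lowest at -0.72. In contemporary cows 0 genes of these lists passed after adjustment against either group. At an unadjusted p by limma of 0.05, 0 of 6, 1 of 18 and 0 of 11 genes tested of the AQP4, ion and glycerol lists passed against YF (3.03% over all transcripts), and 1 of 6, 1 of 17 and 1 of 11 against OF (4.57%).

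Of the other aquaporins on the array, AQP2, the vasopressin-regulated channel of the kidney, was above background on all arrays. Its 2 probes disagreed widely in brightness, with an OF mean of 4.32 for probe 1 and -1.49 for probe 2. Whether both read AQP2 was not tested. The OF minus YF difference was 0.39 for probe 1 and 0.12 for probe 2, with an exact permutation p = 0.143 for their mean. AQP10 was above background on 7 of 11 arrays, MIP, the lens aquaporin, on 5 and AQP6 on 0, and no probe was matched to AQP12A or AQP12B by name.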

How the data were processed

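Endometrial RNA of 12 cows was hybridised to 1-colour custom Agilent bovine arrays. Per the file headers, the authors deposited the scanner output of Agilent Feature Extraction 10.7.3.1, whose processed signal is a background-corrected intensity per spot, not normalised between arrays. From it, log2 of the deposited processed intensity minus the 75th percentile of each array was computed, after removal of the controls and of 66 probes flagged as outliers. Spots of a probe and then probes of a transcript were averaged, which gave 26323 transcripts, of which 21391 had a symbol.

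OF and YF, and contemporary cows and each of these, were compared by limma 3.58.1 in R 4.3.3 (lmFit and eBayes, Benjamini-Hochberg over all transcripts that a probe detected above background throughout either group, threshold 0.05), with only the groups compared in the fit. FCROS was coded from its description (trim 0.25 at each end, f-value at or beyond 0.025 and 0.975, fold change 1.5). Both were run on simulated data with known changes, drawn independently for each transcript. The check covered the mean estimates of limma and the sign of its calls, and set no condition on FCROS. Single genes were tested by two-sided exact permutation over animals. The score of a marker list is the mean over its genes of the deviation from each gene's mean over the 11 arrays. Alternatives were quantile normalisation, median centring, normexp correction (offset 50), the brightest probe, no filter on dim probes, a single fit of all 3 groups, slide as a block, cow 1111 included, no trimming and each animal left out.

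Genes were named by rule: every aquaporin, the 2 genes most like each aquaporin above background on all arrays, and the largest difference either way in each list. The members and lists were chosen with earlier results of these data known. Probe sequences came from the deposited files, and gene symbols were checked against RefSeq. The promoters and proteins of these genes were not used here.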

Additional observations from a re-analysis of the deposited data

How the results depend on the processing

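No aquaporin passed limma at an adjusted p of 0.05 under any setting, with 0 called throughout. Over all transcripts, limma called 0 in contemporary minus YF, but 1 with quantile normalisation, 2 with all 3 groups in 1 fit, 4 with cow 1111 included and 0 to 1 with an animal left out. In contemporary minus OF it called 2 with cow 1111 included and 0 to 1 with an animal left out. FCROS called 551 transcripts with normexp correction, against 1300, and between 1190 and 1555 with a female left out. It called between 1 and 3 aquaporins with a female left out, and only AQP9 without OF 2258, YF 1070 or YF 1127. It did not call AQP1 after quantile normalisation (f-value 0.969) or AQP4 without trimming (f-value 0.0324). The cause of these changes was not tested.

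The OF minus YF difference of AQP1 stayed positive in every setting run, and that of AQP4 negative in all except within slide 1. Small differences changed sign. AQP5 was 0.11 above YF in OF and 0.42 above YF in contemporary cows with slide as a block, and contemporary minus OF was 0.094 for AQP1 with quantile normalisation. For AQP7 it was 0.11 with the brightest probe, and also with dim probes left out before averaging, a setting chosen after seeing the data. Within slides 1 and 2, OF minus YF was -0.38 and 0.45 for AQP3 and -0.84 and 0.65 for AQP5. With an animal left out, it ranged from -0.22 to 0.30 for AQP3, -0.56 to 0.49 for AQP5 and 0.06 to 0.53 for AQP7. Contemporary minus YF ranged from 0.43 to 0.96 for AQP1, -0.18 to 0.73 for AQP3, -0.065 to 1.14 for AQP4, -0.060 to 0.34 for AQP7 and -1.04 to 0.64 for AQP5. Contemporary minus OF ranged from -0.36 to 0.14 for AQP1, -0.21 to 0.70 for AQP3, -0.35 to 0.12 for AQP7 and -1.005 to 0.68 for AQP5.

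Signal over background limits AQP7, AQP8, AQP9 and AQP11. Slide 1 held no contemporary cow other than 1111, and no contemporary difference within it is given. No paired analysis was possible because the animal numbers are not shared between groups.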

Other observations

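Contemporary cow 1111, which entered no level or difference above except where its inclusion is stated, had an AQP1 level of 4.29 and an AQP4 level of 2.79, both inside the range of the other 3 contemporary cows. Its AQP5 was -2.41, its AQP3 -2.61 and its AQP7 -5.83, also inside their ranges, while AQP8, AQP9 and AQP11 were not well above background. With 1111 included, contemporary minus OF was 2.12 for AQP4 (SE 0.67, unadjusted p by limma 0.0129, as under 0.05 for 1067 of 19798 transcripts, adjusted p 0.803).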
